A study of Mus musculus with 8 samples.

Results

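Hspa1a, Hspa1b and Hspb1 are the 3 heat shock genes that stood in the deposited tables as higher in limb bud cells of mice carrying a Sox9 Y440X allele. They were taken by gene symbol from those tables, which hold 739 distinct genes in all, and each is in the tables of both sorted cell fractions. They were thus chosen by the measured difference between genotypes. The study compared C57BL/6 mouse fetuses at E13.5 with 1 reporter allele of Sox9, whose protein switches on the genes of cartilage. The controls (WT) carried Sox9+/IRES-EGFP, in which a green fluorescent protein is made from the same transcript as Sox9, and the mutants (Y440X) carried Sox9+/Y440X-IRES-EGFP, so both genotypes have the reporter and 1 untagged Sox9 allele. Buds of 4 to 6 pairs of limbs were pooled, separately for forelimb and hindlimb, dissociated with collagenase and neutral protease at 37 °C for under 1 h, and sorted into GFP-positive and GFP-negative cells. The 8 RNA-seq libraries thus form 4 groups of 2 (WT and Y440X, each GFP-positive and GFP-negative), with 1 forelimb and 1 hindlimb pool as the replicates of a group. Pool and genotype cannot be told apart, and the spread within a group mixes limb with every other difference between 2 pools.

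Heat shock proteins are chaperones that hold or refold damaged proteins. Hspa1a and Hspa1b are neighbouring, near-identical genes without introns that each encode the stress-inducible cytosolic Hsp70, which is made in small amounts in most unstressed cells. Hspb1 encodes a small heat shock protein that binds unfolding proteins and actin filaments, and it is also made without stress in muscle and in stratified epithelium. After heat or other damage to proteins, the factor Hsf1 binds inverted repeats of GAA, called heat shock elements, before the start of such genes.

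On GRCm38, Hspa1a lies on chromosome 17 at 34969190 to 34972156 and Hspa1b at 34956436 to 34959238, both on the minus strand with 9951 bases between them, and each is 1 exon in GENCODE M21. Hspb1 lies on chromosome 5 at 135887919 to 135889563 on the plus strand. The 250 bases before the start of each gene are printed here to show how alike the first 2 genes are before their start and how Hspb1 differs from them. The sequences are from RefSeq (GRCm38.p6), 5′ to 3′ on the gene's strand, and capitals mark the heat shock element core GAANNTTC.

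Hspa1a, chr17:34972157-34972406, minus strand: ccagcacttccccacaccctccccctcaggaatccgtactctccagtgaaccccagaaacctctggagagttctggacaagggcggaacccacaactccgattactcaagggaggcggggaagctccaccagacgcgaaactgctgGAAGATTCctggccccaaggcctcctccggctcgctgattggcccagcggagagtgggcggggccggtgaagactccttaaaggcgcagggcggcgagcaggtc
Hspa1b, chr17:34959239-34959488, minus strand: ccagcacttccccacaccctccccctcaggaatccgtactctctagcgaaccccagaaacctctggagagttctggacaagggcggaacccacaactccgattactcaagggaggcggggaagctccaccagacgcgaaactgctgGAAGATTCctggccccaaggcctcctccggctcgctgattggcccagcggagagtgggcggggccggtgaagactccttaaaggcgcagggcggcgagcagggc
Hspb1, chr5:135887669-135887918, plus strand: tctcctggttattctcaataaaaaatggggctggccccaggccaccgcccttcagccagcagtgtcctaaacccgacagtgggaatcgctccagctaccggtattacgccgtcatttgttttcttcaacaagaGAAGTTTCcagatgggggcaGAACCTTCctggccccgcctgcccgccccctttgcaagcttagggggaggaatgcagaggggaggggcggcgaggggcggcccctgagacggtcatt

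The Hspa1a and Hspa1b windows were 98.8% identical and differed by 3 substitutions, C44T, T47C and T249G, counted from 1 at the 5′ end with the Hspa1a base first. Both hold GAAGATTC at 104 to 97 bases before the start, and an inverted CCAAT box at 67 to 63 bases. The Hspb1 window holds GAAGTTTC at 117 to 110 bases and GAACCTTC at 97 to 90 bases before the start. Of 32851 RefSeq windows of this length, 6.69% hold GAANNTTC, which reads the same on both strands. The other arrangement of the repeat, TTCNNGAA, was also searched and is in none of the 3 windows, against 7.17% of all windows; 12.8% hold either and 1.46% hold 2 or more. CCAAT on either strand is in 33.8%. These are matches of letters and not measured binding.

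The likeness extends into the transcripts, which limits how the reads can be divided between the copies. Of all stretches of 50 bases in the GENCODE M21 transcript of Hspa1b, 62.3% occur unchanged in that of Hspa1a, and 49.9% of the stretches of 100 bases do. Hspa1a reads took 39.1% to 45.6% of the reads of the pair over the 8 libraries (mean 41.7% ± 1.96, SD, n = 8). The pair is therefore also given as a sum. How reads that match both copies were counted is not known here. If they were dropped, the sum is too low. Hspa1a also overlaps Gm20481 on the opposite strand, by 564 exonic bases. The libraries were stranded, but the strand setting of the counting was not given in the sources used here.

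Read counts are given as counts per 1e+06 reads (CPM), over library sizes of 38661000 to 50985000 reads solved from the authors' deposited values. As a check of the fractions, 20 listed chondrocyte markers summed to between 39100 and 57400 CPM in WT and between 13500 and 17100 CPM in Y440X GFP-positive cells. The same sum was between 820 and 926 CPM in WT and between 492 and 580 CPM in Y440X GFP-negative cells. These markers are in hand because they were listed for a genotype difference, none of them as higher. The fall of the sum in Y440X follows from that, and only the difference between fractions serves as the check. Sox9 transcripts of both alleles, forelimb first, were at 1068 and 922 CPM (WT) and 473.7 and 557.7 CPM (Y440X) in the GFP-positive sort, and at 96.6 and 72.1 CPM (WT) and 17.9 and 21.8 CPM (Y440X) outside it. Y440X changes the coding sequence, so the Sox9 level does not check the genotype label, and the sort itself selected on a reporter inside Sox9.

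Hspa1b had the most reads of the 3 genes. The WT GFP-positive libraries held 32.7 CPM (forelimb) and 29.6 CPM (hindlimb) of it, and the Y440X ones 148.1 and 157 CPM. The WT GFP-negative libraries held 50.4 and 55.1 CPM, and the Y440X ones 241.8 and 298.5 CPM. Within each fraction both Y440X libraries were high and both WT libraries low, with no overlap. For all 3 genes such a gap follows in large part from the choice by genotype difference. The lowest Y440X library of all, a GFP-positive one, lay above the highest WT library, a GFP-negative one.

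Hspa1a had the same order of groups at lower values. Its WT GFP-positive libraries held 23.4 CPM (forelimb) and 19.0 CPM (hindlimb), against 100.1 and 110.3 CPM for Y440X. Its WT GFP-negative libraries held 37.6 and 46.1 CPM, against 164.6 and 217.7 CPM for Y440X. As for its copy, every Y440X library lay above every WT library. Reads of the pair summed to 56.2 CPM (forelimb) and 48.6 CPM (hindlimb) in WT GFP-positive libraries and to 248.2 and 267.3 CPM in the Y440X ones. The GFP-negative sums were 88.0 and 101.3 CPM for WT and 406.4 and 516.2 CPM for Y440X.

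Hspb1 had the fewest reads and differed most between limbs in GFP-negative cells. Its WT GFP-positive libraries held 3.34 CPM (forelimb) and 2.997 CPM (hindlimb), which rest on 129 and 128 reads, against 14.0 and 14.3 CPM for Y440X, which rest on 639 and 645. Its WT GFP-negative libraries held 13.7 and 9.24 CPM, against 28.9 and 19.1 CPM for Y440X. The genotypes did not overlap within a fraction, which again follows in large part from the choice. Across fractions they nearly met, since the WT GFP-negative forelimb library lay just under both Y440X GFP-positive ones.

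**Figure D1:**
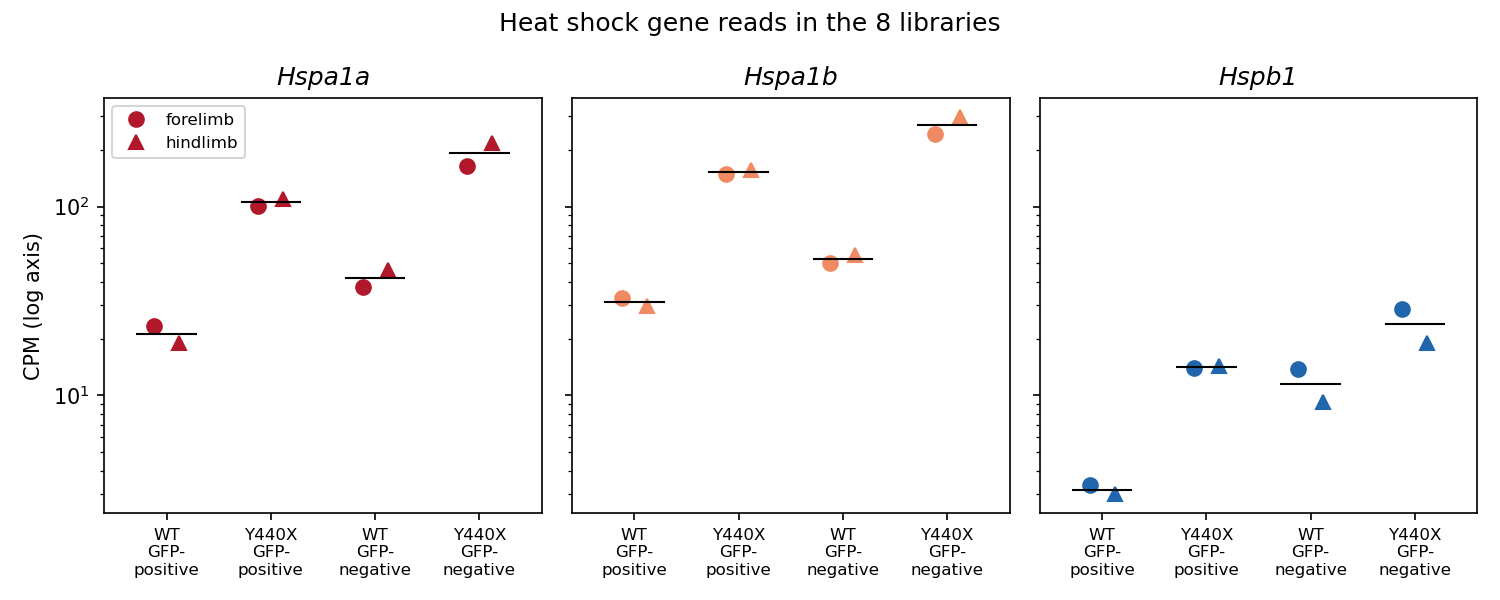
Reads of the 3 genes in CPM (log axis) in the 4 groups, with the forelimb library as a circle, the hindlimb library as a triangle and the mean of the 2 as a bar. In every panel both Y440X libraries of a fraction lie above both WT libraries, and the GFP-negative libraries lie above the GFP-positive ones of the same genotype. The genes were chosen by the genotype difference.

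The genotype difference chose these genes, so it is described here and not tested. The authors listed genes with a false discovery rate (FDR) under 0.05 and at least a doubling or halving. They listed 76 genes as higher in GFP-positive cells, 0.468% of about 16244 tested, and 85 as higher in GFP-negative cells, 0.523%. All 3 genes are among both, and these tables were the basis of the choice. In the authors' deposited table for GFP-positive cells the log2 fold changes of Y440X over WT were 2.29 for Hspa1b (FDR 0.000547), 2.31 for Hspa1a (FDR 0.00192) and 2.16 for Hspb1 (FDR 0.00513). In the authors' deposited table for GFP-negative cells they were 2.36 for Hspa1b (FDR 0.000282), 2.19 for Hspa1a (FDR 0.00133) and 1.06 for Hspb1 (FDR 0.0245). Hspa1b and Hspa1a rank first and second by FDR among the higher genes of both fractions, while Hspb1 ranks 8 of 76 for GFP-positive and 53 of 85 for GFP-negative cells. Hspb1 in GFP-negative cells stands near the authors' limit of 1 on the log2 scale, and the smallest value listed as higher there is 1.0004; genes just outside the limit were not analysed here.

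Within each limb the ratios were close for the Hsp70 pair. In GFP-positive cells Hspa1b was 4.52-fold higher in Y440X forelimb and 5.31-fold higher in Y440X hindlimb, and in GFP-negative cells 4.80-fold and 5.41-fold. Hspa1a was 4.27-fold and 5.79-fold higher in GFP-positive cells, and 4.38-fold and 4.72-fold in GFP-negative cells. Among GFP-positive cells Hspb1 was 4.20-fold and 4.78-fold higher, but 2.10-fold and 2.06-fold higher among GFP-negative cells. The fitted log2 fold changes of Hspb1 were 2.16 ± 0.25 (SE) and 1.06 ± 0.27, and the second lay between 0.73 and 1.37 when 1 library was left out. The difference between fractions was not tested, because it is made of the contrasts that chose the gene. In bulk libraries such as these, more cells of a type and more RNA per cell cannot be told apart.

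**Figure D2:**
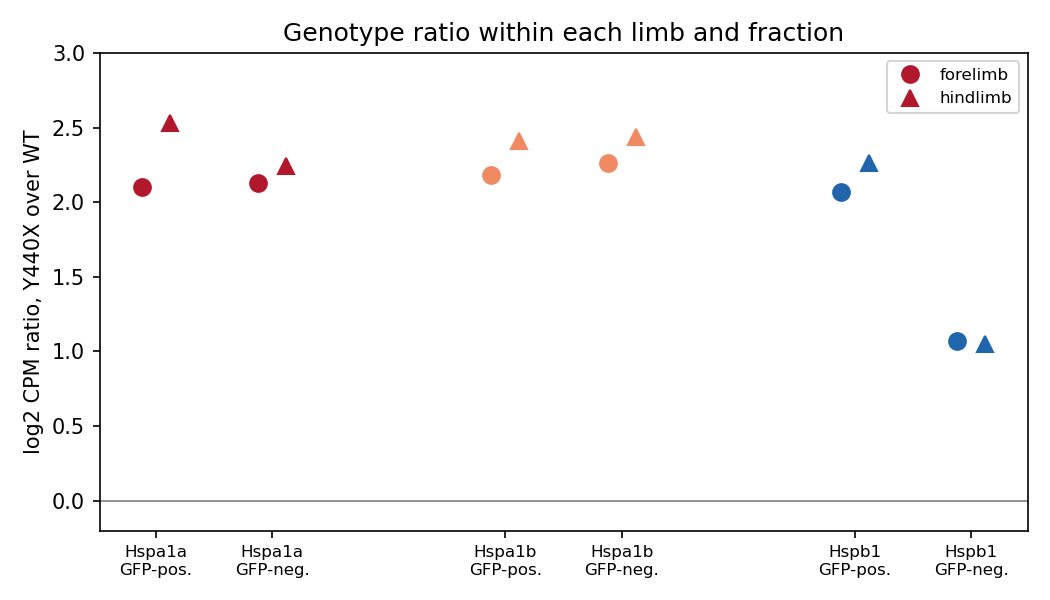
Log2 ratio of CPM in Y440X over WT (y axis) for each gene and fraction (x axis), within forelimb (circles) and hindlimb (triangles). The Hspa1a and Hspa1b ratios lie between 2.10 and 2.53 in both fractions. The Hspb1 ratios lie at 2.07 and 2.26 for GFP-positive and at 1.07 and 1.05 for GFP-negative cells.

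The difference between fractions, averaged over both genotypes, is a separate contrast from the one that chose the genes and was tested. Its spread, however, was estimated in the same libraries and over listed genes only. Listing by FDR favours genes of small spread within groups, so the SE and adjusted p may be too small. All 3 genes were lower in GFP-positive than in GFP-negative cells. The log2 difference was -0.92 ± 0.15 (SE) for Hspa1a (edgeR quasi-likelihood test, adjusted p = 7.8e-05), -0.79 ± 0.14 for Hspa1b (edgeR adjusted p = 0.00013) and -1.31 ± 0.18 for Hspb1 (edgeR adjusted p = 1.5e-05). This fit leaves the fractions of a pool unpaired. Pairing them gave larger SE of 0.24, 0.22 and 0.34, in the same order of genes, with edgeR adjusted p of 0.0077, 0.012 and 0.010. In each limb of each genotype, all 3 genes were lower in the GFP-positive than in the GFP-negative library. Such a call was common: of the 739 listed genes 48.8% were called lower in GFP-positive cells and 80.0% were called in either direction, with a median difference of -0.53. Among the 399 listed genes with at least 1 read per 1000 bases and 1e+06 reads (RPKM) on average, the 3 genes included, 40.1% were called lower and the median difference was 0.15. With the scaling DESeq2 makes from the listed genes, the values were -0.64, -0.51 and -1.0 against a median of -0.23, and all 3 were still called.

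The ratio between fractions overlapped between genotypes for the Hsp70 pair and not for Hspb1. Hspa1b was 1.54-fold higher in GFP-negative cells of WT forelimb and 1.86-fold higher in WT hindlimb, and 1.63-fold and 1.90-fold higher in Y440X. Hspa1a was 1.60-fold and 2.42-fold higher in WT and 1.64-fold and 1.97-fold higher in Y440X. Hspb1 was 4.11-fold and 3.08-fold higher in WT, but 2.06-fold and 1.33-fold higher in Y440X. These are the libraries of the genotype contrast in another arrangement, so the genotypes were not tested against each other here either.

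No limb difference passed the test. Over the 4 groups, hindlimb minus forelimb was 0.14 ± 0.13 (SE) on the log2 scale for Hspa1a (edgeR adjusted p = 0.56), 0.10 ± 0.11 for Hspa1b (edgeR adjusted p = 0.68), and -0.33 ± 0.14 for Hspb1 (edgeR adjusted p = 0.17). Of the 739 genes 5.14% were called, with a median of -0.12. The test counts the fractions of a pool as separate replicates, so this share may be too high. For Hspb1, hindlimb was at 0.673 of forelimb in WT and 0.661 in Y440X GFP-negative cells, and at 0.898 and 1.02 in GFP-positive cells. For Hspa1a and Hspa1b in GFP-negative cells, hindlimb was at 1.23 and 1.09 of forelimb in WT and at 1.32 and 1.23 in Y440X.

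**Figure D3:**
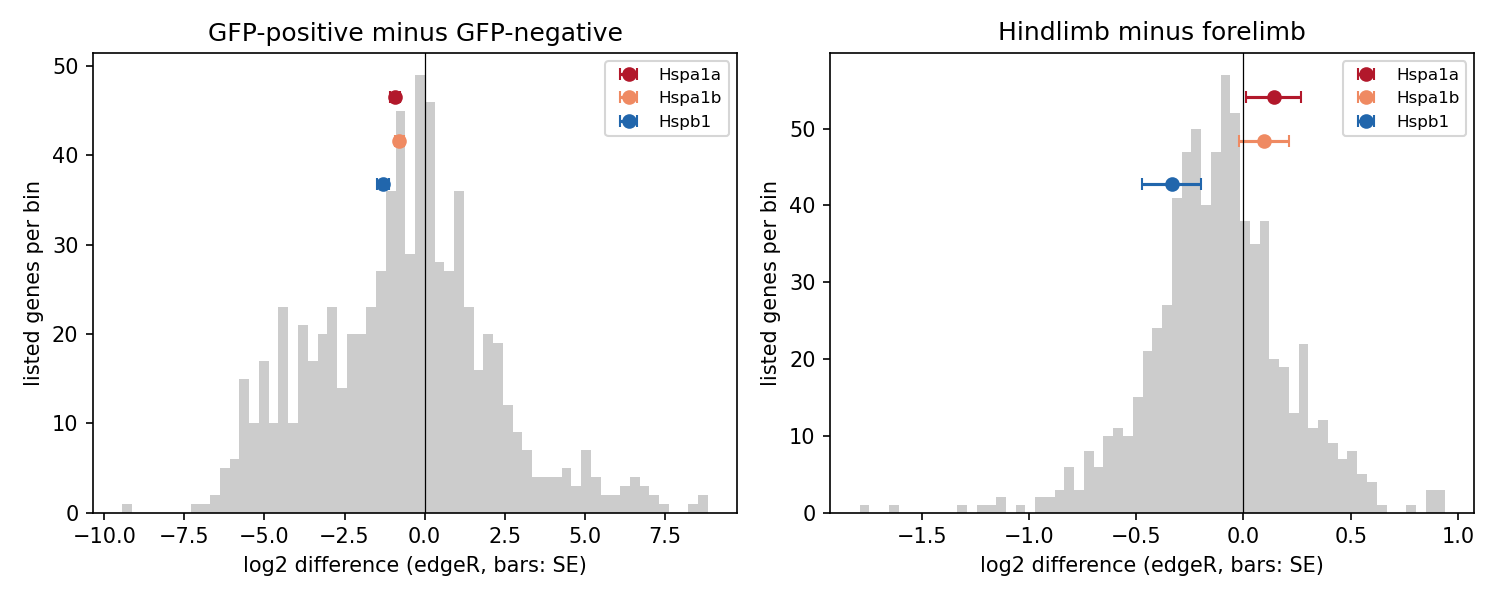
Fitted log2 differences of GFP-positive minus GFP-negative cells (left) and hindlimb minus forelimb (right), with the 3 genes as points with SE bars at arbitrary heights over grey histograms of all 739 listed genes (genes per bin). The 3 genes lie between -1.31 and -0.79 on the left, within the bulk of the histogram, and between -0.33 and 0.14 on the right.

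Levels of different genes can be compared only per length, as RPKM over the deposited gene length. In WT GFP-positive cells Hspb1 was lowest at 3.51 ± 0.266 RPKM (SD, n = 2), followed by Hspa1a at 7.59 ± 1.11 and Hspa1b at 11.1 ± 0.794 RPKM, with no overlap between libraries. In WT GFP-negative cells Hspb1, at 12.7 ± 3.51 RPKM, and Hspa1a, at 15.0 ± 2.16 RPKM, overlapped, and Hspa1b was at 18.8 ± 1.20 RPKM. In Y440X the order was again Hspb1, Hspa1a and Hspa1b without overlap, at 15.7 ± 0.251, 37.6 ± 2.56 and 54.3 ± 2.25 RPKM (GFP-positive) and 26.5 ± 7.66, 68.3 ± 13.4 and 96.1 ± 14.3 RPKM (GFP-negative). The order of Hspa1a and Hspa1b rests on reads that may be divided wrongly between them. Their levels against Hspb1 are too low if reads that match both copies were dropped in counting. Among the 739 listed genes Hspa1b ranked 62 by RPKM in WT GFP-negative cells and 3 in Y440X GFP-negative cells. That rise follows in large part from the choice, since Hspa1b was chosen as higher and most of the 739 were listed as lower.

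The balance between both kinds of chaperone varied less between libraries in GFP-positive than in GFP-negative cells. Per length, the Hsp70 pair together exceeded Hspb1 5.42-fold and 5.22-fold in WT and 5.71-fold and 6.01-fold in Y440X GFP-positive cells, in forelimb and hindlimb. In GFP-negative cells it exceeded Hspb1 2.06-fold and 3.53-fold in WT and 4.53-fold and 8.72-fold in Y440X. In that fraction the hindlimb ratio was the higher in both genotypes. Hspb1 shares no stretch of 50 bases with Hspa1a. If reads that match both Hsp70 copies were dropped in counting, all these ratios are too low.

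The other chaperone and stress genes were read from the same tables, which list 4.55% of the about 16244 genes tested. Of 75 further genes in 7 lists (the Hsp70, Hsp90, Hsp40 and small heat shock families, chaperonins, chaperone cofactors and the heat shock factors), 1 is listed. It is Hspb3, a small heat shock protein of muscle, listed as lower in GFP-negative cells, with 0.679 and 0.584 CPM in the WT and 0.235 and 0.270 CPM in the Y440X libraries (authors' deposited table, log2 fold change -1.31, FDR 0.0485). The remaining 74, Hsf1 and the partners of Hsp70 among them, were not analysed here. Of 54 further genes in the ER stress, oxidative and metal stress, and immediate early lists, 2 are listed and both as lower, where 1.40% of all tested genes are listed as lower for the GFP-positive and 2.62% for the GFP-negative sort. The cystine transporter Slc7a11 was at 11.5 ± 0.67 CPM (SD, n = 2) in GFP-positive cells of WT and 2.78 ± 0.744 CPM in those of Y440X (authors' deposited table, FDR 0.00337). Dusp2, an immediate early phosphatase of leukocytes, was at 11.3 ± 5.38 CPM in GFP-negative cells of WT and 3.95 ± 0.825 CPM in those of Y440X (authors' deposited table, FDR 0.0258). No member of the ER stress list and 1 of the 30 immediate early genes, Dusp2, is listed in either fraction. The counts of 1 of 75 and 2 of 54 are a description, and their difference from the share of all genes was not tested.

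The genes whose profile over the 8 libraries lay nearest to the mean profile of the 3 were found among the same 739. Likeness was measured by the root mean square difference of log2(CPM + 0.5), each gene centred on its own mean, among 538 other listed genes with a mean of at least 1 CPM, whose median distance was 1.654. The 5 nearest were Krt14, a basal keratin (0.290), the ligand Wnt6 (0.324), the desmosome protein Dsp (0.332), the basal keratin Krt5 (0.354) and the gap junction protein Gjb2 (0.381). The members themselves lay at 0.177 (Hspa1a), 0.214 (Hspa1b) and 0.378 (Hspb1) from their own mean, so Krt14 lay nearer to it than Hspb1. That mean is drawn toward the near-identical Hsp70 pair, whose profiles lay 0.106 apart, while Hspb1 lay 0.55 from Hspa1a and 0.588 from Hspa1b. Nearness to the mean is thus mostly nearness to the pair, and it does not rank Krt14 against Hspb1 as a member. All 5 are among the 19 genes listed as higher in both fractions. That follows in large part from the choice, since the profiles include the genotype difference that chose the 3 genes and that listed all 739.

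**Figure D4:**
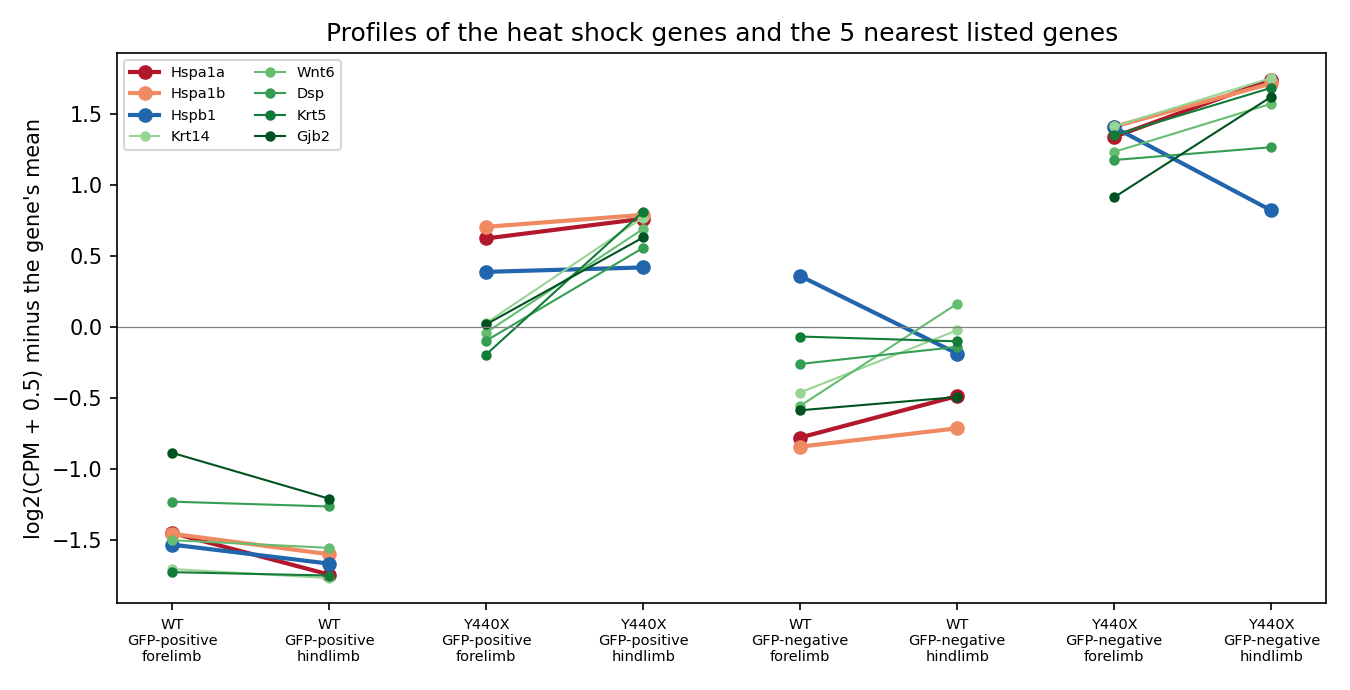
Log2(CPM + 0.5) minus each gene's own mean (y axis) in the 8 libraries (x axis), for the 3 heat shock genes (thick lines) and the 5 listed genes with the nearest profiles (thin green lines); lines join the limbs of a group. All 8 genes are lowest in WT GFP-positive and highest in Y440X GFP-negative cells, and the lines of Hspa1a and Hspa1b nearly coincide.

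Listed markers of other cell types and of the pools also moved with genotype. Of 24 epithelial markers, 10 are listed as higher for the GFP-positive and 8 for the GFP-negative sort, against the 0.468% and 0.523% of all genes given above, and none of the 11 in hand had a library at 0 reads. Krt14, Dsp and Krt5 are among them. The summed level of the 11 in hand went from 22.5 to 22.6 CPM in WT to 60.4 to 84.4 CPM in Y440X GFP-positive cells. In GFP-negative cells it went from 45.4 to 47.1 CPM to 107 to 127 CPM. This sum and those below hold only markers listed for a genotype difference. Their direction therefore follows largely from the listing, and unlisted markers were not analysed here. Within Y440X GFP-positive cells Krt14 was at 7.17 CPM (forelimb) and 12.3 CPM (hindlimb), while Hspb1 was at 14.0 and 14.3 CPM. Epcam, at 18.2 and 15.4 CPM, and Grhl3, at 2.61 and 2.47 CPM, were lower in hindlimb there. The other epithelial markers in hand were higher in hindlimb, as Krt14 was. In GFP-negative cells the authors listed 425 genes as lower, 2.62% of those tested. Of 28 skeletal muscle markers, 8 are listed in this fraction, all as lower, and their sum went from between 125 and 127 CPM to between 48.1 and 58.4 CPM, while Hspb1 was higher. In that fraction 14 of 20 macrophage and leukocyte markers are listed as lower and 2, S100a8 and S100a9, as higher, and the sum of the 16 went from between 496 and 572 CPM to between 140 and 167 CPM. Of 20 endothelial markers 10 are listed as lower, and the sum of the 11 in hand went from between 265 and 282 CPM to between 115 and 116 CPM. Of the muscle, leukocyte and endothelial markers in hand, Cacna1s, S100a8 and S100a9 had a library at 0 reads. The Y-linked genes Ddx3y and Uty, 2 of 4 on that list, summed to 71.5 to 89.8 CPM in the WT and 25.9 to 32.3 CPM in the Y440X libraries, so the pools differed in Y-linked RNA. The part of these in the heat shock results was not tested.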

How the data were processed

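Per the labels' protocols, 100 ng of total RNA of each sorted sample was made into a stranded poly(A) library. Tools named in the submitters' processing notes are featureCounts and edgeR 3.36.0, with builds GRCm38 and mm10; an aligner was not given in the sources used here. Although the headers speak of RPKM, the deposited values of each library are counts: 100% were whole, and divided by the deposited CPM they gave nearly 1 library size (median 44.4, 5th to 95th percentile 41.5 to 46.7, in units of 1e+06 reads) whatever the gene length. The authors' comparison columns hold log2 fold changes, a log2 average CPM, an F score, and p-values with their FDR, per the file headers, and the deposited tables give another kind of value, gene length in bases.

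A least squares solution gave the effective library sizes from deposited log2 values of 316 genes with a mean of at least 200 counts (median residual of log2 fold changes 0.00016). There were 0 sample columns left unused. The number of genes the authors tested lies between 16223 and 16265, from the FDR and p of their first genes. edgeR 4.0.16 (quasi-likelihood test as in version 3, R 4.3.3) was fitted on all 739 genes with these sizes, with Benjamini-Hochberg adjustment over the 739. Fraction and limb were tested on all 8 libraries, and genotype folds were fitted per fraction without a test; tests were two-sided. They measure the spread between libraries, estimated for both tests over listed genes only. Both main fits treat the libraries as separate, although the fractions of a limb and genotype came from the same pooled buds. The limb test thus counts the fractions of a pool as separate replicates, and no alternative for limb grouped them by pool. In simulated data for the fraction test on 739 genes, 96.0% of genes changed by 1 on the log2 scale were recovered. The simulated libraries were independent, with the same spread setting for every gene, no limb or pool effect and most genes unchanged. The share recovered is thus a check of the code and not the power of this design. Alternatives were TMM and DESeq2 1.42.0 scaling, limma 3.58.1 on log2(CPM + 1) and log2(CPM + 0.1), sizes from genes of at least 1000 counts, a mean RPKM of at least 1, a replicate block, and leaving out each library. Both fractions of a limb and genotype came from pooled buds, and their deviations from the group means correlated at 0.15 in WT and 0.163 in Y440X over 399 genes; over all pairs of groups the correlations between same-limb libraries lay between 0.0504 and 0.542. The genes named are the 3 heat shock genes, every listed gene of the stress lists, the 5 nearest profiles, Sox9 and listed markers. The members and lists were chosen with earlier results of these data known.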

Additional observations from a re-analysis of the deposited data

How the results depend on the processing

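The fraction difference of each of the 3 genes kept its direction and its call in all 16 alternatives, with adjusted p between 7.3e-06 and 0.0077 for Hspa1a, 1.2e-05 and 0.012 for Hspa1b, and 7.7e-08 and 0.010 for Hspb1. The replicate block by pool, which pairs the fractions of a limb and genotype, gave -0.91 ± 0.24 (SE), -0.79 ± 0.22 and -1.28 ± 0.34. Its edgeR adjusted p of 0.0077, 0.012 and 0.010 were the largest of the alternatives, and its SE were larger than in the main fit. Neither it nor the block by limb changed a call. No limb difference of the 3 genes was called in any of the 14 alternatives. The number of genes called for limb, 38, fell to 14 in DESeq2, 11 and 2 in limma on log2(CPM + 0.1) and log2(CPM + 1), and 19 when the 399 genes at a mean RPKM of 1 or more were tested. Leaving out a library gave 1 to 46, with 1 without either Y440X GFP-positive library and 7 or 10 without a WT GFP-negative one; the cause was not tested. The number called for fraction, 591 (230 higher and 361 lower), was 335 of those 399 genes (175 higher and 160 lower), where fewer genes were tested, and 569 to 583 without a library.

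The genotype folds depend on scaling. TMM and DESeq2 over the listed genes alone, most of which were listed as lower, moved the median of all genes by 0.65 and 0.58 in GFP-positive and by 1.07 and 1.07 in GFP-negative cells. The log2 folds of Hspa1a, Hspa1b and Hspb1 became 2.99, 2.96 and 2.83 with TMM and 2.91, 2.88 and 2.75 with DESeq2 in GFP-positive cells, and 3.27, 3.43 and 2.13 with TMM and 3.26, 3.43 and 2.13 with DESeq2 in GFP-negative cells, within 0.03 of their main distance from that median. Hspb1 measured 1.86 and 1.00 in limma on log2(CPM + 1), where the pseudocount compresses low values. Without a library, the folds in GFP-positive cells lay between 2.17 and 2.47, 2.22 and 2.37, and 2.08 and 2.24, and in GFP-negative cells between 1.98 and 2.38, 2.2 and 2.5, and 0.73 and 1.37; the lowest, for Hspb1, was without the Y440X forelimb. With 2 pools a group, limb and pool cannot be separated.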
